A study of Mus musculus with 8 samples.

Results

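Genes taken as markers of the atria of the mouse heart were followed through 8 hearts. The genes were Myl7, Myl4, Sln, Mybphl, Bmp10, Stard10, Dkk3, Kcnj3, Fgf12 and Nr2f2. Whether they are restricted to the atria was not measured. They are 10 of the 21412 genes and unnamed features that gave a usable signal on the arrays. The genes were chosen from earlier results on these same hearts, in which atrial transcripts differed widely from heart to heart. Their spread and their correlations are therefore given as a description, with no test. Each heart was hybridised to its own 1-colour microarray. The 4 control hearts came from male C57BL6 mice that carried Cre recombinase and had no floxed Igf1r, the gene of the insulin-like growth factor 1 receptor. The 4 dtg (double transgenic) hearts came from male C57BL6 mice of the genotype merCremer/+ IGFloxP/IGFloxP. The treatment protocol is the same for both groups. Mice aged 8 months received 500 µg of 4OH-Tamoxifen in peanut oil daily for 10 days, which in dtg mice removes exon 3 of Igf1r, and hearts were taken 6 weeks later. The labels do not name the promoter that drives merCremer, do not say whether the atria were kept or trimmed, and do not say which samples, if any, share an animal. P-values therefore measure the spread between these samples alone.

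The atria and ventricles of the adult mouse heart use different forms of several muscle proteins. Atrial muscle cells build their myosin with the light chains Myl7 and Myl4, restrain the calcium pump of the sarcoplasmic reticulum with sarcolipin (Sln), and carry potassium channels that acetylcholine opens. Ventricular muscle cells use Myl2 and Myl3 as light chains and phospholamban (Pln) on the same pump. The nuclear receptor Nr2f2, also called COUP-TFII, is required for atrial identity during development. In RNA from whole tissue, fewer atrial cells and less RNA per atrial cell cannot be told apart.

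Promoter windows were available from RefSeq (GRCm38.p6) for 8 of the 10 genes. Those of Myl7 and Myl4 are shown because these 2 light chains followed almost the same course over the hearts, those of Mybphl and Bmp10 because they held the letters searched for GATA factors. Each line gives the 250 bases before the transcription start, 5′ to 3′ on the gene's own strand, with letters matching a searched motif in capitals.
Myl7 (chr11:5898783-5899032, minus strand): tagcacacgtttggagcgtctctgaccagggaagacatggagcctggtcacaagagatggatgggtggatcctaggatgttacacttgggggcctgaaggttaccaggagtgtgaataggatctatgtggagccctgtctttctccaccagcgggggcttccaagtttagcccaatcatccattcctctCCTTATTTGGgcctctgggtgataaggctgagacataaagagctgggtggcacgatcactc
Myl4 (chr11:104550413-104550662, plus strand): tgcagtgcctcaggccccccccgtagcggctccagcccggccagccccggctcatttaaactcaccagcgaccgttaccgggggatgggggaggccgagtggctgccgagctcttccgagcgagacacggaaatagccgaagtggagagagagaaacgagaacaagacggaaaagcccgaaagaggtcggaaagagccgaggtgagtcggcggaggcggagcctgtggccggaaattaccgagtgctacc
Mybphl (chr3:108364661-108364910, plus strand): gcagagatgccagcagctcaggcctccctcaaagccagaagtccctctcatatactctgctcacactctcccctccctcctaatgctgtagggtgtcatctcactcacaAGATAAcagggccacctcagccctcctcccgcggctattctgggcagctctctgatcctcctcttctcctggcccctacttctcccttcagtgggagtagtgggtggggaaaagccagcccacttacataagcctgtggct
Bmp10 (chr6:87428744-87428993, plus strand): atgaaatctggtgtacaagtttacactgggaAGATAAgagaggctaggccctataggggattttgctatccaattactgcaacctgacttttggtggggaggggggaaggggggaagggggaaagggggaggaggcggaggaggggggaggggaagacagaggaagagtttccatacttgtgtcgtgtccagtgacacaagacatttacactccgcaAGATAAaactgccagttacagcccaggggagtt

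The capitals in Myl7 mark a CArG box, the motif of serum response factor, 61 to 52 bases before the start. A CArG box was present in 1.47% of all 32851 RefSeq windows of this length. The capitals in Mybphl and Bmp10 mark AGATAA, the letters searched for GATA factors. They lie 141 to 136 bases before the start of Mybphl, and 219 to 214 and 33 to 28 bases before the start of Bmp10. AGATAA on either strand was present in 9.99% of all windows, and no other spelling of a GATA site was searched. The Myl4 window held none of the motifs searched, nor did those of Stard10 and Nr2f2. AGGTGT, searched for T-box factors and present in 11.8% of all windows, lay in the window of Kcnj3 and in 1 of the 4 windows of Fgf12. AGGTCA, to which nuclear receptors such as Nr2f2 bind, was present in 14.0% of all windows and, among these genes, in 1 window of Fgf12. A MEF2 box, present in 2.92% of all windows, lay in another window of Fgf12. TNAAGTG, searched for NKX2-5, was present in 10.1% of all windows and in none of these genes. The motifs were searched on both strands and their letters do not overlap in these windows. Each match describes letters alone, and no binding was measured.

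Signals are log2 values of the scanner's processed intensity minus the 75th percentile of the array, so a difference of 1 is a doubling, and a value is compared between hearts for a given probe, never between genes. Between 59.1% and 71.4% of probes were well above background on an array, and no spot was saturated. The arrays lay on 2 slides. Slide 1 held controls 1 and 2 with dtg 1 and 4, and slide 2 held controls 3 and 4 with dtg 2 and 3. Control 4, dtg 3 and dtg 4 stand apart over all genes. Their highest r with any other array was 0.984 to 0.988, against 0.994 to 0.995 for the other 5 arrays, so ranges, the comparison of the groups and the slide 2 differences are also given without them. The order of the hearts and the correlations were not recomputed on the other 5 hearts. Igf1r, the targeted gene, had 1 probe, above background on all 8 arrays. Control hearts ranged from 0.18 to 1.04 and dtg hearts from -0.30 to 0.404, a difference of -0.43 (SE 0.24) that did not pass (limma adjusted p = 1), and whether its probe lies in the deleted exon 3 is not known here. All 10 atrial genes were measured. Their probes were well above background on all 8 arrays, except that of Bmp10 and the second probe of Fgf12, which fell short on dtg 2.

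Myl7, the atrial regulatory light chain, varied 20.7-fold over the 8 hearts. It read 3.70, 1.15, 4.74 and 5.43 in controls 1 to 4, and 3.37, 1.06, 1.55 and 4.92 in dtg 1 to 4. The hearts fell into 3 steps, with dtg 2, control 2 and dtg 3 low, dtg 1 and control 1 in the middle, and control 3, dtg 4 and control 4 high. Each step held hearts of both genotypes. A gap of 1.83 on the log2 scale parted the low step from the middle, and one of 1.04 parted the middle from the high step. Without control 4, dtg 3 and dtg 4 the range was still 12.8-fold.

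Myl4, the atrial essential light chain, read 6.17, 3.89, 7.20 and 7.90 in controls 1 to 4, and 6.10, 3.91, 4.48 and 7.36 in dtg 1 to 4. The same 3 hearts were low and the same 3 high, over a 16.2-fold range, or 9.96-fold without control 4, dtg 3 and dtg 4. With normexp background correction on the pixel median the log2 range fell from 4.01 to 3.33. Mybphl encodes a relative of the myosin binding proteins of the thick filament. It read 0.92, -2.06, 2.15 and 2.37 in the controls, and 0.76, -2.05, -1.06 and 1.66 in the dtg hearts, a 21.6-fold range (18.6-fold without the 3 arrays that stand apart). All dtg values lay between the lowest and the highest control. The same 3 hearts were lowest and the same 3 highest, but the gap of 0.737 above the middle pair was narrower than for the light chains, so its steps are less clear. The log2 range was 4.43, and 3.79 with normexp on the pixel median. Sarcolipin (Sln) read 4.62, 1.48, 5.85 and 6.41 in the controls, and 4.46, 1.75, 2.30 and 5.92 in the dtg hearts. Its 30.5-fold range was the widest of the 10 genes, and 20.6-fold without control 4, dtg 3 and dtg 4. Its lowest and its highest value were both in control hearts.

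The channel-related genes differed from each other. Fgf12 encodes an intracellular fibroblast growth factor homologue that binds voltage-gated sodium channels. It read -2.25, -4.62, -0.72 and 0.10 in controls 1 to 4, and -2.33, -4.40, -3.73 and -0.72 in dtg 1 to 4, a 26.4-fold range in the same 3 steps as the light chains, or 14.9-fold without control 4, dtg 3 and dtg 4. The width of the range depended on 1 heart and on the background treatment. On the log2 scale it was 4.72, and 3.90 without control 4 alone, 3.12 with normexp on the pixel median and 3.09 with normexp and dark spots left out. A second Fgf12 probe spanned 17.6-fold and followed the first (Pearson's r = 0.97 over the 8 hearts). Kcnj3 encodes GIRK1, a subunit of the acetylcholine-activated potassium channel of atrial muscle. It read -2.02, -2.11, -1.71 and -1.54 in the controls, and -1.82, -2.28, -2.06 and -1.66 in the dtg hearts. Its hearts followed nearly the same order as for Myl7, but over a 1.66-fold range, close to the median range of 1.66-fold over all features. With normexp on the pixel median its log2 range rose from 0.735 to 1.84. The second Kcnj3 probe did not follow the first (r = -0.20). It correlated with Myl7 at r = -0.10, against 0.93 for the first probe, so the course of Kcnj3 rests on 1 of its 2 probes.

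Dkk3, a secreted protein of the Dickkopf family, read 1.52, 0.72, 2.90 and 4.03 in controls 1 to 4, and 2.16, 1.05, 0.62 and 2.86 in dtg 1 to 4. It varied 10.6-fold, or 4.54-fold without control 4, dtg 3 and dtg 4. Its log2 range of 3.41 was 2.28 without control 4 alone and 2.17 with normexp on the pixel median. Control 4 was the highest heart and dtg 3 the lowest. Bmp10 is a secreted ligand of the bone morphogenetic protein family made by the heart. It read -4.68, -4.24, -3.64 and -3.55 in the controls, and -3.14, -6.10, -5.18 and -3.57 in the dtg hearts. Bmp10 went its own way, with dtg 1 highest and control 1 among the 3 lowest hearts. The lower end of its 7.78-fold range is dtg 2, where the probe was not well above background. Its log2 range of 2.96 was 2.04 without dtg 2 and 1.05 with normexp and dark spots left out.

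Stard10, a lipid transfer protein, read 1.14, 0.50, 1.96 and 1.59 in controls 1 to 4, and 1.19, 0.54, 0.73 and 0.90 in dtg 1 to 4. The 2.76-fold range had the usual 3 hearts at the bottom, but dtg 4, high for the light chains, ranked just above these 3. Nr2f2, the atrial identity factor, read -0.43, -0.70, 0.03 and 0.03 in the controls, and -0.37, -0.35, -0.57 and 0.02 in the dtg hearts. Its 1.66-fold range equals that of the median feature, although the 3 hearts high in Myl7 were also its 3 highest.

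**Figure D1:**
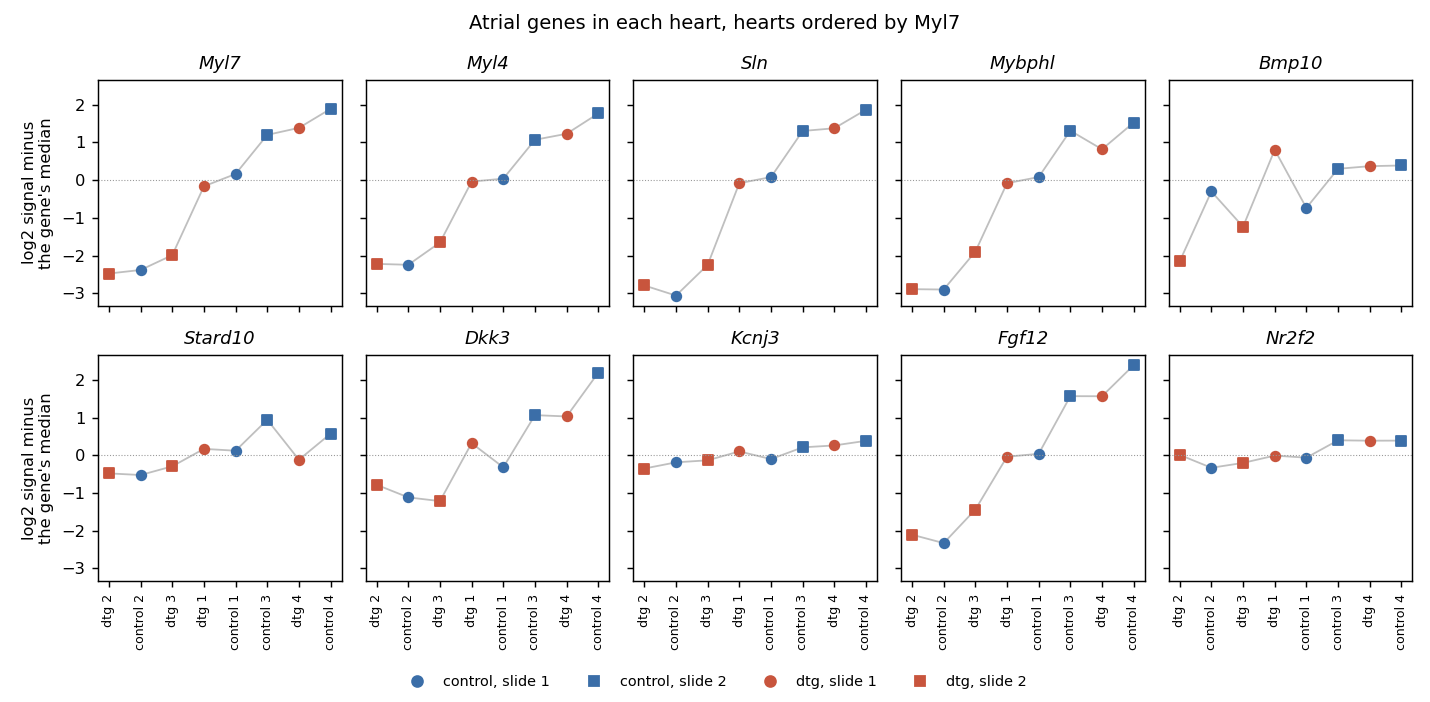
Log2 signal of each of the 10 genes minus its own median over the hearts (vertical axis, log2 units), with hearts ordered along the horizontal axis by Myl7; colour marks the group and shape the slide. Myl7, Myl4, Sln, Mybphl and Fgf12 are lowest in control 2, dtg 2 and dtg 3 and highest in control 3, control 4 and dtg 4, while Kcnj3 and Nr2f2 stay within a 1.66-fold range.

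Against all 21412 features, 5 of the 10 genes were among the most variable. By the SD over the 8 hearts Sln ranked 15 (SD 1.99), Mybphl 33, Fgf12 35, Myl7 39 and Myl4 75. Dkk3 ranked 340 and Bmp10 826, and Stard10 lay within the upper 20.4%. Nr2f2 and Kcnj3 had SDs of 0.29 and 0.25, beside a median of 0.25 over all features. By this spread these last 2 genes do not go with the others, but their ranges depend on the processing. With median scaling the log2 range of Nr2f2 rose from 0.73 to 1.15 and that of Kcnj3 from 0.74 to 0.99. Both stayed below the 1.88 of Stard10 in that setting. With normexp on the pixel median the log2 range of Kcnj3 was 1.84, wider than the 1.41 of Stard10. The variance of Myl7 split as 9.6% between the groups, 0.0816% between the slides and 68.6% in the combination of group and slide. For the 10 genes the last share was 51% to 82.7%, beside a median of 9.82% over all features.

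**Figure D2:**
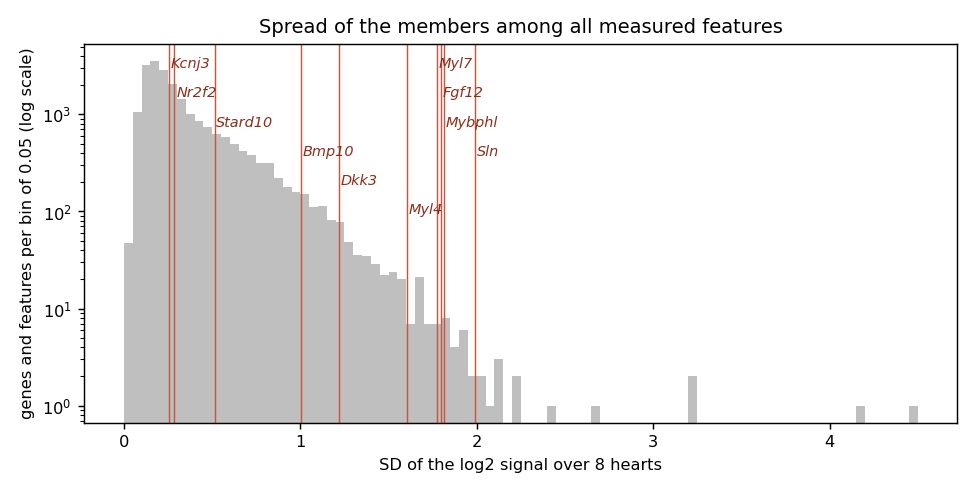
Number of genes and features (vertical axis, log scale) in bins of 0.05 of the SD of the log2 signal over the 8 hearts (horizontal axis, log2 units), with a red line at each of the 10 genes. Myl4, Myl7, Fgf12, Mybphl and Sln lie in the right tail, and Kcnj3 (SD 0.25) and Nr2f2 (SD 0.29) lie among the bulk of genes.

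The order of the hearts was shared by most of the genes. Control 2, dtg 2 and dtg 3 were the 3 lowest hearts for 8 of the 10 genes, as they were for 1.19% of all features, and the exceptions were Bmp10 and Nr2f2. Control 3, control 4 and dtg 4 were the 3 highest for 8 genes, as for 5.38% of all features, and the exceptions were Bmp10 and Stard10. Both held for 7 genes and for 0.402% of all features. These counts describe genes that were chosen on these hearts.

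Over the 45 pairs of genes the median Pearson's r was 0.90, from 0.48 for Bmp10 with Nr2f2 to 0.998 for Myl7 with Myl4, and no pair was below 0. Spearman's rho had a median of 0.88 and ranged from 0.41 to 1. Each r is over the same 8 arrays, which share their RNA and scaling, and since the hearts lie in steps an r rests largely on the distance between the steps. Leaving out the 2 hearts farthest from the median in Myl7 gave a median r of 0.91. The median was also 0.91 with slide means subtracted and 0.89 with group means subtracted.

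Myl7, Myl4, Sln, Mybphl, Fgf12 and Dkk3 formed the tightest group, picked after their values were seen. Its 15 pairs had r between 0.90 and 0.998 (median 0.99), and Myl4 and Sln ranked the 8 hearts identically (rho = 1). For each log2 unit of Myl7 the fitted change was 1.12 in Sln, 1.01 in Mybphl and close to 1 in Fgf12, 0.90 in Myl4 and 0.64 in Dkk3. The other genes changed less per unit, by 0.41 in Bmp10, 0.23 in Stard10, 0.14 in Nr2f2 and 0.13 in Kcnj3. Their r with Myl7 was 0.73 for Bmp10, 0.81 for Stard10, 0.87 for Nr2f2 and 0.93 for Kcnj3. For Stard10 it was 0.64 without the 2 hearts farthest from the median.

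**Figure D3:**
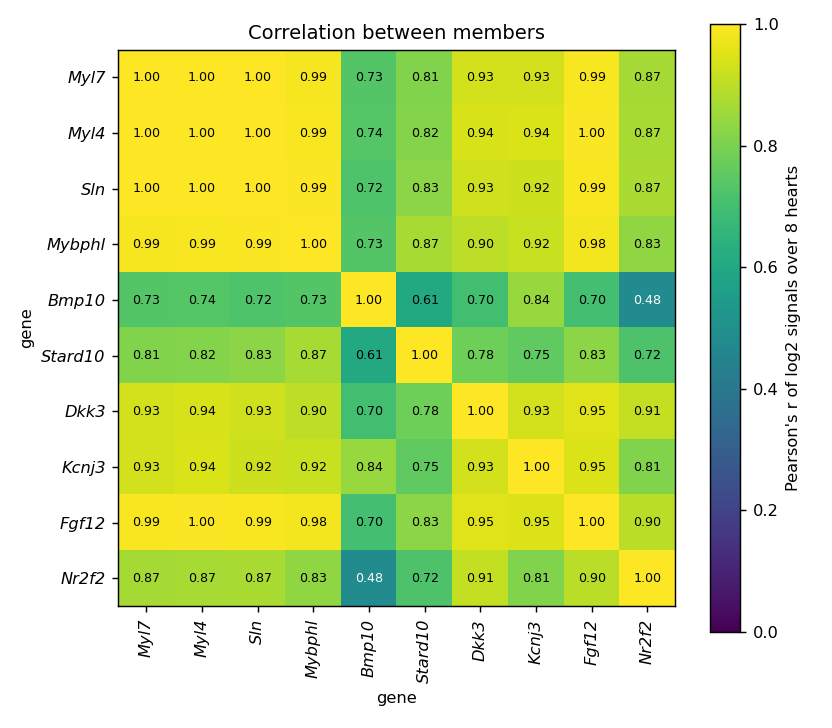
Pearson's r of log2 signals over the 8 hearts for each pair of the 10 genes, with genes on both axes and colour and printed value giving r. Values for Myl7, Myl4, Sln, Mybphl and Fgf12 with each other are near 1, and Bmp10 with Nr2f2 is lowest at 0.48.

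Whether Igf1r deletion went with a change in the atrial genes was asked by comparing dtg with control hearts. No atrial gene passed in the comparison of all 8 hearts. The mean of Myl7 was 3.76 ± 1.87 over the controls and 2.73 ± 1.77 over the dtg hearts (SD, n = 4 for each), a difference of -1.03 (SE 1.12, limma adjusted p = 1). The difference was -0.98 (SE 1.27) for Sln, -1.02 (SE 1.15) for Mybphl, -0.92 (SE 1.14) for Fgf12 and -0.83 (SE 1.02) for Myl4. It was -0.62 (SE 0.78) for Dkk3, -0.47 (SE 0.64) for Bmp10 and -0.46 (SE 0.31) for Stard10. Kcnj3 differed by -0.11 (SE 0.18) and Nr2f2 by -0.05 (SE 0.21). Apart from Stard10, every gene's SE exceeded its difference, and the adjusted p was 1 for all 10. When the 3 arrays that stand apart were left out and slide was fitted as a block, Myl7 differed by -1.04, Dkk3 by -0.20 and Bmp10 by -0.30, again with an adjusted p of 1 for all 10.

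Of all 21412 features, 0 (0%) passed an adjusted p of 0.05, and 159 had an unadjusted p under 0.05, none of them an atrial gene. The dtg mean was below the control mean for 10 of the 10 genes and for 44.7% of all features. That share of all features depended on the scaling and was 70.7% with median scaling, 54.5% with quantile normalization and 56.6% with normexp on the pixel median. The median difference was -0.72 over the 10 genes and 0.01 over all features. All 4 dtg hearts lay below all 4 controls for 0 of the 10 genes and for 0.182% of features.

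The slides gave opposite signs. Within slide 1 Myl7 read 3.70 and 1.15 in controls 1 and 2 and 3.37 and 4.92 in dtg 1 and 4, a difference of 1.72 (SE 0.94). Within slide 2 it read 4.74 and 5.43 in controls 3 and 4 and 1.06 and 1.55 in dtg 2 and 3, a difference of -3.78 (SE 0.34). The dtg hearts thus averaged higher on slide 1, where a low control stood beside a dtg heart of the high step. On slide 2 both controls belonged to the high step and both dtg hearts to the low step.

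The other 9 genes had the same signs. Sln differed by 2.14 (SE 1.09) on slide 1 and -4.11 (SE 0.32) on slide 2. Fgf12 differed by 1.91 and -3.75, Mybphl by 1.78 and -3.81, Myl4 by 1.70 and -3.36, Dkk3 by 1.39 and -2.63, and Bmp10 by 1.11 and -2.04. The smallest were Stard10 at 0.23 and -1.14, Nr2f2 at 0.39 and -0.49, and Kcnj3 at 0.33 and -0.54. The slide 2 value of Bmp10 includes dtg 2, where its probe was not well above background. In dtg 3, where the probe was, Bmp10 read -5.18, against -3.64 and -3.55 in controls 3 and 4. With normexp and dark spots left out Bmp10 differed by 0.56 and -0.75. With control 4 and dtg 3 left out, slide 2 keeps 1 heart a group, and dtg 2 minus control 3, with no test, was -3.68 for Myl7, -4.10 for Sln and -1.85 for Dkk3. The second Fgf12 probe differed by 1.40 and -3.78. The second Kcnj3 probe differed by -0.28 and -0.16, so its sign did not turn.

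Within slide 1 the dtg mean was higher for 10 of the 10 genes and for 51.8% of all features, and 0% of features passed the adjusted threshold. There 728 features had an unadjusted p under 0.05, 2 of the 10 genes among them, Bmp10 and Dkk3, both higher in dtg hearts. Within slide 2 both dtg hearts lay below both controls for 10 of the 10 genes and for 11.9% of features. A drop of more than 1 on the log2 scale was seen there in 8 genes, Bmp10 with the limit above among them, and in 0.602% of features. With 2 hearts a group on a slide, 0% of features passed on slide 2 as well, where 496 features had an unadjusted p under 0.05, 8 of the 10 genes among them. The limma adjusted p there was 0.646 for Sln, 0.739 for Myl7, 0.92 for Myl4, Mybphl and Fgf12, and 0.999 for the other 5.

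Under 2 other treatments of the arrays, calls appeared on slide 2. With normexp background correction and spots darker than their own background left out, 0.042% of features passed, and these 9 features included Myl7, Myl4, Sln, Mybphl and Fgf12, with adjusted p between 0.00416 and 0.0364. With median scaling 0.0701% passed, 15 features with the same 5 genes among them and adjusted p between 0.0037 and 0.00686. Each of the 5 was lower in dtg hearts in both. No call was made on slide 2 with quantile normalization or with normexp over all spots.

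The test of the difference between the slides, a group by slide term, passed for 0.00467% of features. The 1 feature was Cst9, a cystatin family gene, and 0 of the 10 genes passed, though all 10 had an unadjusted p under 0.05, as had 979 features in all. The term was -6.25 (SE 1.40) for Sln, -5.50 (SE 1.23) for Myl7 and -3.15 (SE 0.47) for Bmp10. The limma adjusted p was 0.666 for Bmp10, 0.754 for Dkk3 and 0.801 for the other 8. Cst9 followed the light chains (r = 0.89 with Myl7), with differences of 2.08 on slide 1 and -4.66 on slide 2, and its probe was above background on 4 arrays.

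**Figure D4:**
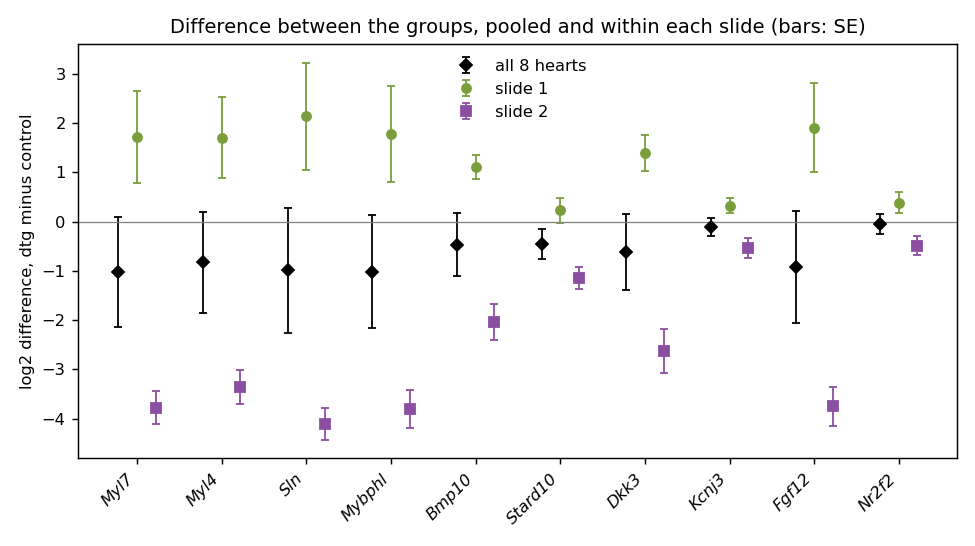
Difference in log2 signal, dtg minus control (vertical axis), for each of the 10 genes (horizontal axis) over all 8 hearts and within each slide, with bars of 1 SE. Every gene is above 0 on slide 1 and below 0 on slide 2, with the widest pair at 2.14 and -4.11 for Sln.

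To see what else shared the course of Myl7, named genes with an SD of at least 0.5 over the hearts were ranked by their r with Myl7. Of 2095 such genes, 21 had r above 0.9, and over all features the median r was -0.0039 and 0.248% lay above 0.9. Leading the rank were Sds, a serine dehydratase (r = 0.99, above background on 7 arrays), Nppa (r = 0.99) and Rab3b, a GTPase of secretory vesicles (r = 0.99). Nppa, the precursor of atrial natriuretic peptide, read 7.36, 5.31, 8.10 and 8.29 in controls 1 to 4, and 7.32, 5.64, 5.53 and 8.07 in dtg 1 to 4. It spanned 7.88-fold with the same hearts low and high, and differed by 1.36 on slide 1 and -2.61 on slide 2.

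Next came Adamts19 and Adamts8, both secreted metalloproteases, the vesicle protein gene Sytl2, Ppp1r1b, Mlana, Podn, the secreted Wnt antagonist Sfrp5, Uts2b and the chemokine Cxcl13, with r from 0.97 down to 0.95. Mlana, a protein of pigment cells, varied 14.0-fold, Sfrp5 4.12-fold and Cxcl13 6.86-fold. Uts2b was above background on 4 arrays and Adamts19 on 5. The most opposed were Atp8b4 (r = -0.91), Mgat5 (r = -0.91), Olfr1243 (r = -0.88), Zbtb16 (r = -0.87), Gdf15 (r = -0.85) and Uty (r = -0.85). Among these Zbtb16, Gdf15 and Uty were above background on all 8 arrays. Zbtb16, a zinc finger transcription factor, read 0.68, 1.94, 1.15 and 0.50 in controls 1 to 4, and 0.96, 1.97, 1.69 and 1.15 in dtg 1 to 4, highest in the 3 hearts that were lowest in Myl7.

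Other atrial genes divided. Of 12 measured from a list of 14, 8 had a positive and 4 a negative r with Myl7 (median 0.40), and their median range was 3.05-fold. Sbk2, a kinase of atrial muscle, had r = 0.94, Gja5, a connexin of atrial and conducting cells, 0.93, and Pam, the enzyme that amidates secreted peptides, 0.83. Their ranges were 3.54-fold, 3.63-fold and 2.21-fold. Without control 4, dtg 3 and dtg 4 they were 3.04-fold for Sbk2, 1.97-fold for Gja5 and 1.83-fold for Pam. Against these genes stood Kcna5, a potassium channel gene of the same list, at r = -0.80 and a 1.60-fold range. A second Kcna5 probe was also above background on all 8 arrays, and its course is not given here. Of the 12 genes 9 had a lower and 3 a higher dtg mean, and 0 passed.

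Ventricular genes had no common course with Myl7. Over the 12 measured the median r with Myl7 was 0.00 and the median range 1.41-fold, and 5 of the 12 exceeded the median range of all features. The widest was Kcnip2 at 2.95-fold, or 1.27-fold without control 4, dtg 3 and dtg 4. The ventricular light chains Myl2 and Myl3 varied 1.10-fold and 1.13-fold. The largest r in size were 0.76 for Hey2, a repressor of atrial genes, and -0.73 for Kcnip2, a subunit of the transient outward potassium channel. General cardiomyocyte genes had a median range of 1.32-fold, and Myh6, the main myosin heavy chain of both adult chambers, 1.09-fold.

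The known partners of the 10 genes had a median range close to that of all features, with some wide exceptions. Of 28 listed 25 were measured, 11 with a positive and 14 with a negative r (median -0.06), a median range of 1.60-fold and 0 calls. The range exceeded that of the median feature for 9 of the 25, up to 5.4-fold for Fgf11, a relative of Fgf12 (r = -0.20). The calcium pump Atp2a2, on which Sln acts, varied 1.36-fold (r = 0.04), and Pln 1.28-fold (r = 0.01). Kcnj5, the other subunit of the Kcnj3 channel, varied 1.62-fold (r = 0.57), and Chrm2, the muscarinic receptor upstream of it, 4.45-fold (r = -0.55). Gnai2, the G protein subunit, had r = -0.64 and Rgs4, which shortens its signal, also -0.64. Chrm2, Gnai2 and Rgs4 were lowest in control 4, dtg 3 and dtg 4, the arrays that stand apart, and without these they varied 1.24-fold, 1.14-fold and 1.18-fold. Bmpr2, a receptor of Bmp10, had r = -0.69 over a 2.04-fold range, which was 1.22-fold without the same 3 arrays. Nr2f6, a relative of Nr2f2, had r = -0.72 over a 1.22-fold range, which was 1.06-fold without these 3 arrays. Fgf13, another relative of Fgf12, had r = -0.01.

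Markers of other cell types moved with Myl7 in part. All 7 markers of epicardium and mesothelium, the cell layer that covers the heart, had a positive r (median 0.84, from 0.70 for Wt1 to 0.89 for Lrrn4), and all 7 had a lower dtg mean, with 0 calls. Their mean log2 signal was -2.20, -2.42, -1.41 and -1.09 in controls 1 to 4, and -2.11, -2.17, -2.40 and -1.48 in dtg 1 to 4. It was highest in control 3, control 4 and dtg 4, the hearts that were high in Myl7. These same hearts were highest for 5.38% of all features, and control 4 and dtg 4 are among the arrays that stand apart. The low and middle steps of Myl7 were not followed, since dtg 2, lowest in Myl7, read -2.17 and control 1, of the middle step, -2.20. The part of epicardial and mesothelial cells in the result was not tested. Of 6 fibroblast markers 5 had a positive r (median 0.55, median range 1.50-fold). All 6 general cardiomyocyte genes (median 0.35) and all 5 measured erythroid markers (median 0.16) also had a positive r. Medians were 0.32 for adipocytes, 0.29 for smooth muscle, 0.00 for nerve and glia, -0.07 for endothelium and -0.07 for leukocytes.

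Of 10 sinoatrial node genes 5 were measured (median r = -0.23). The node genes Hcn4 and Isl1 were above background on 0 arrays and Shox2 on 1. Of 8 skeletal muscle markers Myh1, Myh4 and Mylpf were above background on 0 arrays, and 3 were measured (median r = 0.04). Of 6 lung markers the surfactant genes Sftpc, Sftpb and Sftpa1 were above background on 0 arrays. Lung and thymus had 2 measured markers each (median r = -0.01 and -0.03), and of the thymus markers Rag1 was above background on 0 arrays.

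**Figure D5:**
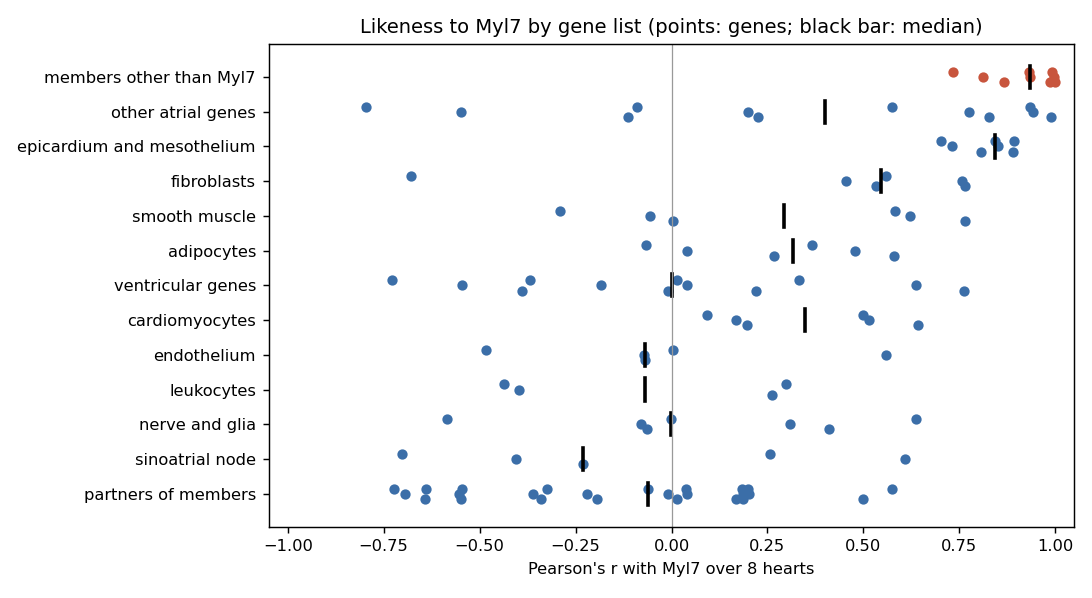
Pearson's r with Myl7 over the 8 hearts (horizontal axis) for single genes (points) in 13 gene groups (vertical axis), with a black bar at each median. The epicardium and mesothelium genes all lie above 0 (median 0.84), while ventricular genes and the partners of the 10 genes lie on both sides (medians 0.00 and -0.06).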

How the data were processed

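RNA of 4 control and 4 dtg hearts was measured on 1-colour (Cy3) arrays from 100 ng of total RNA each, per the labels' protocols. The authors deposited scanner tables with a processed signal per spot in linear intensity units, made with Agilent Feature Extraction 10.7.3.1 and local background correction. Both come from the file headers, which name mm9. A deposited table holds log2 values, which matched quantile normalized log2 processed signal centred on each probe's median (r of at least 0.999992 per array), with column medians from -0.0322 to 0.0323, and its tool is not stated in the sources used here.

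Control spots and outlier spots were left out, log2 values of repeat spots were averaged, and each array was scaled by subtracting the 75th percentile of its averaged probes. The percentile over all spots was run first and is kept as an alternative. Of 39429 probes 26363 were named through RefSeq accessions. A probe was kept if well above background on at least 4 of 8 arrays (26095 probes). A gene was represented by its kept probe with the highest mean, giving 21412 features, and 12 probes matched the 10 genes. The test was limma's (version 3.58.1, R 4.3.3; lmFit, eBayes) with Benjamini-Hochberg adjustment over all features at 0.05, over all hearts, within each slide and with a group by slide term. With 4 arrays a group, precision is limited. The test over all hearts was checked on simulated data with known changes. The tests within each slide and the group by slide term were not.

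The genes and the gene lists were chosen with earlier results of these data known. Genes named beside them were, by rule, those most and least correlated with Myl7 among named genes with an SD of at least 0.5, and up to 4 per list by size of r. Other genes named from the lists, such as Kcna5, Myl3, Wt1, Fgf11 and markers not above background, fall outside that rule and were named with their values seen. Alternatives were 2 forms of normexp (offset 50, on the pixel median), quantile and median scaling, other filters, the mean of all probes, the deposited values, slide and replicate blocks, and leaving out hearts.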

Additional observations from a re-analysis of the deposited data

How the results depend on the processing

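The comparison of all 8 hearts gave 0 calls under every alternative run, each left-out heart included. Of 199 alternative values for single genes 193 kept their sign and side of the threshold. The other 6 reversed, 5 of them on leaving out 1 heart. Nr2f2 differed by 0.0016 with normexp on the pixel median, which left 9 of the 10 genes lower. Without control 3, control 4 or dtg 3 it differed by 0.0486, 0.0457 and 0.0316 (range -0.19 to 0.0486), Bmp10 by 0.0667 without dtg 2 (range -0.92 to 0.0667), and Kcnj3 by 0.00037 without dtg 2 (range -0.20 to 0.00037). Leaving out 1 heart gave -1.90 to -0.47 for Myl7, -1.63 to -0.29 for Myl4, -2.02 to -0.37 for Sln, -1.99 to -0.39 for Mybphl, -1.84 to -0.26 for Fgf12, -1.14 to -0.04 for Dkk3 and -0.73 to -0.24 for Stard10, left 8 to 10 genes lower in dtg hearts, and put the median correlation between 0.87 and 0.93. That median fell to 0.73 with normexp on the pixel median. Within slide 2 the count of calls was 9 with normexp and dark spots left out and 15 with median scaling, and the cause was not tested. With the replicate block 0 features passed and 10 genes were lower, with 277 features at an unadjusted p under 0.05. The replicate block lowered the SE of Myl7 from 1.12 to 0.58 and that of Bmp10 from 0.64 to 0.63. Same-numbered hearts correlated at 0.54, -0.54, 0.15 and 0.16 in their deviations. The closest dtg heart had the same number for controls 1 and 4 and another number for controls 2 and 3. These values cannot settle whether the numbers pair hearts. Requiring signal on all 8 arrays dropped Bmp10. Dim probes limit Bmp10 and the second Fgf12 probe.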
